A study of Saccharomyces cerevisiae with 6 samples.

Results

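The 3 citrate synthase genes of yeast and 6 genes of the retrograde pathway were compared between 2 strains grown in chemostats. The 9 genes, CIT1, CIT2, CIT3, DLD3, RTG1, RTG2, RTG3, MKS1 and LST8, were taken by name from a table of 5479 gene models, and each name stood on 1 model. IMY104 has the genotype acs1Δ acs2Δ and carries the centromeric plasmid pUDC140 with the pdhA, pdhB, aceF and lpd genes of an Enterococcus faecalis pyruvate dehydrogenase and the lipoylation genes lplA and lplA2. CEN.PK113-7D, a prototrophic laboratory strain, has both ACS genes and no plasmid. Each strain was sampled from 3 independent cultures, kept aerobic and limited by glucose. The dilution rate was 0.10 per h at pH 5.0 and 30 °C, and the feed of both strains held glucose at 7.5 g/L and lipoic acid at 500 ng/mL, which was added from a solution in ethanol. The table's own heading for the IMY104 libraries names another strain of the CEN.PK family, CEN.PK102-12A, so differences of strain background cannot be told apart from those of the acetyl-CoA route.

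RNA levels are FPKM, which scale a gene's fragments to its length and to the size of the library, with 1 value for each strain combined over its 3 libraries by the authors. No value per library is given, so no SD, no spread between cultures and no depth stand behind the levels here. Fold changes, p-values and q-values are those of the authors' own test, and a gene is said to have risen or fallen where its q-value was under 0.05 over all 5463 models tested. At that rule the authors' deposited table called 22.6% of the models, with 11.6% higher and 11.0% lower in IMY104. The deleted genes follow the labels: ACS1 had 0.882 FPKM in IMY104 and 1094 FPKM in CEN.PK113-7D, and ACS2 had 0.179 FPKM in IMY104 and 494 FPKM in CEN.PK113-7D, in the authors' deposited table.

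Citrate synthase joins acetyl-CoA and oxaloacetate into citrate. Cit1 works in the mitochondrion as the entry enzyme of the tricarboxylic acid cycle, Cit2 works in the peroxisome as part of the glyoxylate cycle, and Cit3 is a second mitochondrial enzyme that also makes 2-methylcitrate from propionyl-CoA. The retrograde pathway carries a signal from the mitochondrion to the nucleus. Its effectors Rtg1 and Rtg3 bind DNA as a pair, Rtg2 is the positive factor upstream that counters the inhibitor Mks1, and Lst8 is a negative regulator and a subunit of the TOR kinase complexes. CIT2 is the classical reporter of the pathway, and DLD3, which encodes a cytosolic enzyme acting on D-lactate and D-2-hydroxyglutarate, is another well known target.

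Rtg1 and Rtg3 are known to bind the sequence GTCAC, the R box. The 300 bases around the start codon, 250 before it and 50 from it onwards, are shown for the citrate synthase genes and DLD3 because the effectors of the pathway act through this motif. They are the RefSeq sequence of the reference strain S288C, assembly R64, read on the coding strand from that assembly's own annotation, and the sequence of the strains studied was not used. Capitals mark GTCAC on either strand, which reads GTGAC when it lies on the opposite one. The windows are chr3:122279-122578 on the minus strand for CIT2, chr5:16105-16404 on the plus strand for DLD3, chr14:631012-631311 on the minus strand for CIT1 and chr16:556127-556426 on the plus strand for CIT3.
CIT2: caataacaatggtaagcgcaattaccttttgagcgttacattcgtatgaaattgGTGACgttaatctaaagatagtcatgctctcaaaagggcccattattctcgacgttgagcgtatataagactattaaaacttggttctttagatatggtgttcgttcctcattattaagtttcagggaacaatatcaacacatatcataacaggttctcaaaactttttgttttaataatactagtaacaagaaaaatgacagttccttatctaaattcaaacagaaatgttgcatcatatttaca
DLD3: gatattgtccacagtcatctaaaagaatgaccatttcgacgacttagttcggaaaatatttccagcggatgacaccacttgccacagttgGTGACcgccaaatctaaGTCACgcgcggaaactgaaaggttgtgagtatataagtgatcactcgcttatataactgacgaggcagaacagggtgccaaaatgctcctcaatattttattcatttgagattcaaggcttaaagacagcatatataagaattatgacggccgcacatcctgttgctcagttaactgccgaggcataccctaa
CIT1: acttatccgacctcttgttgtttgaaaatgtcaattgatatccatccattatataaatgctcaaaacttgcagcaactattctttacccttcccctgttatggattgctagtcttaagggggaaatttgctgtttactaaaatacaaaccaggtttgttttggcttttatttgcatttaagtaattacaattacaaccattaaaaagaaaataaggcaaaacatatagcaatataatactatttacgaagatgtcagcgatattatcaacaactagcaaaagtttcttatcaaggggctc
CIT3: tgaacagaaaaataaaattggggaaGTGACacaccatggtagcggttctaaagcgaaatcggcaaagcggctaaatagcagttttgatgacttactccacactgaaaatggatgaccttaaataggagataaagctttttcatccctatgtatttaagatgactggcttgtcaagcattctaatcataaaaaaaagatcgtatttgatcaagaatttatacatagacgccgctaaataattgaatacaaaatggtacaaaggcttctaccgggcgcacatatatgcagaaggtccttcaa

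Positions are counted back from the start codon, the base before it being -1, and name the leftmost base of the motif. In this window CIT2 has 1 R box at -196, DLD3 has a pair at -160 and -143, CIT3 has 1 at -225, and CIT1 has none. Among the regulators RTG1 has 1 at -194 and RTG2 has 1 at -196, and RTG3, MKS1 and LST8 have none. The motif is common: 26.4% of 6026 windows of this length around R64 coding starts hold it on either strand, and 3.97% hold 2 or more, as DLD3 does. With 500 bases before the start, CIT2 gains a pair at -345 and -312 for 3 in all, CIT1 gains 1 at -368 and RTG3 gains 2 at -370 and -342, while 45.8% of such windows hold the motif and 13.0% hold 2 or more. The motif CCAAT is bound by the Hap complex, which is known to activate CIT1 during respiration. It was found on either strand in the 250 base windows of CIT2 at -200, CIT3 at -234 and RTG3 at -231, and in 43.2% of all windows. CIT1 had no match in that window and 1 match, at -293, with 500 bases before the start. In CIT2 the CCAAT match and the R box share 1 base. A match is a run of letters and not a shown binding site.

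CIT2 was the member with the largest difference between the strains. Its level was 1682 FPKM in IMY104 and 417 FPKM in CEN.PK113-7D, with a log2 fold change of 2.01 and a q-value of 0.00047, in the authors' deposited table. That is a 4.03-fold higher level, and 13 of the 5463 tested models, CIT2 itself included, had a log2 fold change at least as high. That count takes in any of the 7 plasmid models that reach this value, and CEN.PK113-7D has no plasmid. Among all tested models, 96.1% stood at or below CIT2 in IMY104 and 86.0% in CEN.PK113-7D.

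CIT1 did not pass the test. Its level was 1429 FPKM in IMY104 and 1389 FPKM in CEN.PK113-7D, with a log2 fold change of 0.04 and a q-value of 0.84, in the authors' deposited table. CIT3, the remaining mitochondrial isoform, did not pass either. It had 404 FPKM in IMY104 and 452 FPKM in CEN.PK113-7D, with a log2 fold change of -0.16 and a q-value of 0.268, in the authors' deposited table. The difference between the fold changes of CIT2 and of its paralogs was not tested, since that needs values per library.

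FPKM are scaled to length, so the levels of the 3 genes can be added and compared. CIT2 ranked first of the citrate synthases in IMY104 and last in CEN.PK113-7D. It made up 47.8% of the summed citrate synthase level in IMY104 and 18.5% in CEN.PK113-7D. CIT1 made up 40.7% in IMY104 and 61.5% in CEN.PK113-7D, and CIT3 11.5% in IMY104 and 20.0% in CEN.PK113-7D. The summed level was 3516 FPKM in IMY104 and 2258 FPKM in CEN.PK113-7D, 1.56-fold higher in IMY104. The difference in that sum was 1258 FPKM, against 1265 FPKM for CIT2 alone. The level of CIT1 was 0.85 times that of CIT2 in IMY104 and 3.33 times that of CIT2 in CEN.PK113-7D.

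**Figure D1:**
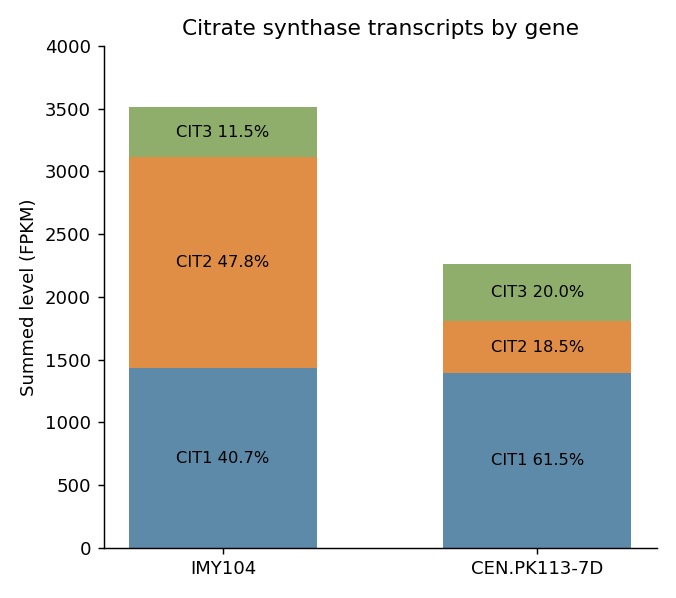
Stacked bars give the level of the 3 citrate synthase genes in FPKM for IMY104 and CEN.PK113-7D, 1 combined value per strain with no error available, and percentages give each gene's share of the bar. The CIT2 block is 47.8% of the bar in IMY104 and 18.5% in CEN.PK113-7D, while the CIT1 blocks have nearly the same height.

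Because CIT1 and CIT2 are paralogs, the chance that reads of one were counted for the other was looked at through their R64 coding sequences. CIT2 and CIT1 were identical in 71.2% of aligned positions, and their longest shared run was 21 bases. CIT2 and CIT3 were identical in 55.7%, and CIT3 and CIT1 in 54.7%, with longest shared runs of 14 bases each. No read length is stated in the labels. The gene models of all 9 members had the same length as the coding sequence in R64, so none of them was a fragment. The ends of the coding sequences are shown because the last codons of CIT2 encode a peroxisomal targeting signal, the feature that sends this isoform to its compartment. The last 30 bases are given 5′ to 3′ with the last 3 codons before the stop codon in capitals, from R64 at chr3:120946-120975 on the minus strand for CIT2, chr14:629622-629651 on the minus strand for CIT1 and chr16:557808-557837 on the plus strand for CIT3.
CIT2: ttggtcaaaaacattgaaAGCAAACTAtag
CIT1: ttggtaaagaaaatcgaaAGTAAGAACtaa
CIT3: accaaagcaagcaatgttAACAAGTTGtaa

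DLD3 rose as well. Its level was 820 FPKM in IMY104 and 458 FPKM in CEN.PK113-7D, with a log2 fold change of 0.84 and a q-value of 0.00047, in the authors' deposited table. The level was 1.79-fold higher in IMY104, and 76 of the tested models had a log2 fold change at least as high. That count includes DLD3 itself and any plasmid models that reach this value. DLD3 and CIT2 stood close together in CEN.PK113-7D, where the level of DLD3 was 1.10 times that of CIT2. In IMY104 it was 0.487 times that of CIT2. The targets therefore share a direction and a q-value, the lowest the authors' test can give, and differ in size. Whether that difference in size exceeds the spread between cultures was not tested.

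None of the 5 retrograde regulators passed the test. RTG1, a DNA-binding subunit, had 97.5 FPKM in IMY104 and 88.9 FPKM in CEN.PK113-7D, with a log2 fold change of 0.13 and a q-value of 0.389, in the authors' deposited table. Its partner RTG3 had 79.0 FPKM in IMY104 and 74.4 FPKM in CEN.PK113-7D, with a log2 fold change of 0.09 and a q-value of 0.571, in the authors' deposited table. Both DNA-binding subunits were thus listed at a slightly higher value in IMY104, well inside the range of models that were not called.

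RTG2, the sensor upstream, had 129 FPKM in IMY104 and 121 FPKM in CEN.PK113-7D, with a log2 fold change of 0.10 and a q-value of 0.519, in the authors' deposited table. The inhibitor MKS1 had 59.6 FPKM in IMY104 and 61.4 FPKM in CEN.PK113-7D, with a log2 fold change of -0.04 and a q-value of 0.816, in the authors' deposited table. LST8 had 169 FPKM in IMY104 and 180 FPKM in CEN.PK113-7D, with a log2 fold change of -0.10 and a q-value of 0.527, in the authors' deposited table. The log2 fold changes of the 3 RTG genes were thus positive and those of the 2 negative regulators negative, none of them past the test, and the lowest unadjusted p-value among the 5 was 0.191, for RTG1.

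The regulators stood in 1 order of levels in both strains, LST8 over RTG2, RTG1, RTG3 and MKS1. Their range was 59.6 to 169 FPKM in IMY104 and 61.4 to 180 FPKM in CEN.PK113-7D, and their levels summed to 534 FPKM in IMY104 and 525 FPKM in CEN.PK113-7D. The median level of all tested models was 85.3 FPKM in IMY104 and 83.6 FPKM in CEN.PK113-7D. RTG3 and MKS1 lay below that median in both strains, and every citrate synthase and DLD3 lay above the highest regulator in both. In IMY104 the full order was CIT2, CIT1, DLD3, CIT3 and then the regulators. In CEN.PK113-7D it was CIT1, DLD3, CIT3, CIT2 and then the regulators, with DLD3, CIT3 and CIT2 between 417 and 458 FPKM. Without values per library it cannot be said which neighbours in these orders differ beyond their spread.

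**Figure D2:**
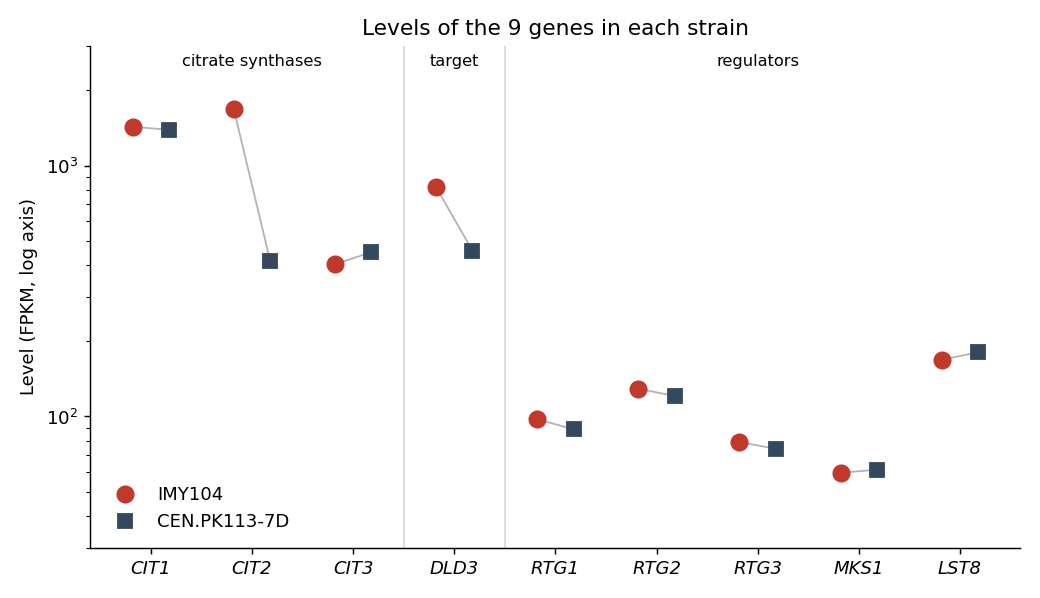
Points give the level of each of the 9 genes in FPKM on a log axis, with IMY104 as circles on the left and CEN.PK113-7D as squares on the right of each pair, 1 combined value per strain and no error available. CIT2, at 1682 FPKM in IMY104 and 417 FPKM in CEN.PK113-7D, and DLD3, at 820 FPKM in IMY104 and 458 FPKM in CEN.PK113-7D, are the pairs that stand apart, and the 5 regulators form nearly level pairs.

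Of the 9 genes, 2 were called higher and none lower by the authors' test, and 7 were not called. The same 2 genes were the members with an unadjusted p-value under 0.05. The share called, 22.2%, is next to the 22.6% called over all tested models, so the count says nothing particular about these genes. The median log2 fold change of the 9 was 0.09, against 0.008 over all tested models. CIT2 and DLD3 stand out by size: 99.6% of tested models had a smaller absolute log2 fold change than CIT2, and 97.1% a smaller one than DLD3. For the regulators that share ran between 18.8% for MKS1 and 52.8% for RTG1, and it was 60.3% for CIT3 and 18.8% for CIT1. With the further demand of a 2-fold change only CIT2 was called, beside 0.824% of all tested models called higher by that rule and 1.89% called in either direction.

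**Figure D3:**
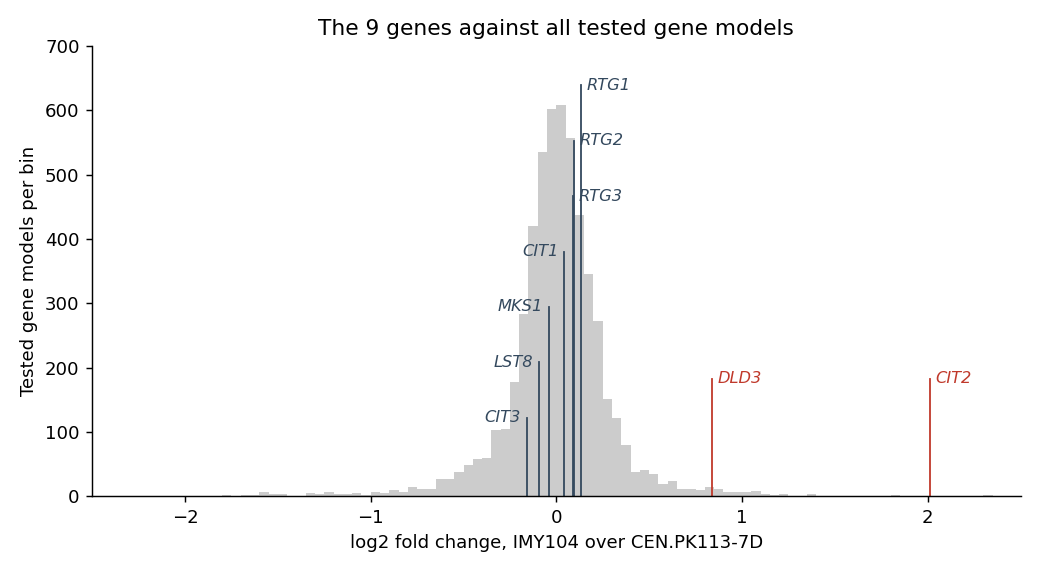
Grey bars count the tested gene models by log2 fold change (IMY104 over CEN.PK113-7D) in bins of 0.05 units, with 13 models outside the plotted range, and labelled lines mark the 9 genes, whose heights carry no meaning. CIT2 at 2.01 and DLD3 at 0.84 lie in the right tail, and the other 7 genes lie between -0.16 and 0.13, in the body of the distribution.

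What the authors' test could have called sets how the regulators read. Among 2101 tested models with 50 to 200 FPKM in both strains, the band that holds all 5 regulators, the smallest absolute log2 fold change called was 0.23 and the largest not called was 0.28 in the authors' deposited table. The regulators, at 0.13 or less, lay under both. Among 471 models with 400 to 1500 FPKM in both strains, the band of CIT1 and CIT3, the smallest called was 0.24 and the largest not called 0.25 in the authors' deposited table. Changes of RNA level under about that size were not detectable with these libraries, and the activity or location of the regulators, at which much of this pathway is known to be controlled, was not measured.

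Other genes, of the retrograde pathway and of the metabolism and regulation around the members, were taken from 9 short lists. Most of the lists are not lists of retrograde pathway genes. The counts of each list stand beside 11.6% of all tested models called higher and 11.0% called lower. Among 4 tricarboxylic acid and anaplerotic genes known to need the RTG genes when respiration is impaired, 1 rose, 1 fell and 2 were not called. That list holds none of the 9 members, so CIT1, not called and with a log2 fold change of 0.04, is not counted in it. IDH2, a subunit of isocitrate dehydrogenase, rose with a log2 fold change of 0.39 from levels of 827 FPKM in IMY104 and 632 FPKM in CEN.PK113-7D in the authors' deposited table. Its partner subunit IDH1 had 0.00064 and aconitase ACO1 had 0.20 on the same scale, neither called, in the authors' deposited table. PYC1, a pyruvate carboxylase that supplies oxaloacetate, fell with -0.47, at 133 FPKM in IMY104 and 184 FPKM in CEN.PK113-7D, in the authors' deposited table. Of these 4 genes, only IDH2 changed in the direction of CIT2 and DLD3.

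None of 7 genes for partners of Mks1 and for other TOR complex 1 subunits was called by the authors' test. The 14-3-3 genes BMH1 and BMH2, whose products bind Mks1, stood at -0.23 and -0.14 on the log2 fold change scale of the authors' deposited table. GRR1, which marks Mks1 for breakdown, had -0.03, and the TOR subunits TOR1, TOR2, KOG1 and TCO89 lay between -0.20 and 0.15 in the authors' deposited table. At an unadjusted p-value under 0.05 stood BMH1, with 0.0233, and TOR1, with 0.0437, in the authors' deposited table. The median of the list was -0.03, against 0.008 over all tested models.

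The glyoxylate cycle, in which Cit2 works, held 2 of 6 listed genes that rose and none that fell. Among all tested models 11.6% were called higher and 11.0% lower. MLS1, the malate synthase, rose with a log2 fold change of 1.19, at 122 FPKM in IMY104 and 53.7 FPKM in CEN.PK113-7D, in the authors' deposited table. ICL1, the isocitrate lyase, rose with 0.73, at 506 FPKM in IMY104 and 306 FPKM in CEN.PK113-7D, in the authors' deposited table. Malate dehydrogenases MDH2 and MDH3, the second malate synthase DAL7 and ACO1 were not called, with values between -0.16 and 0.20, in the authors' deposited table. The list had a median of 0.05.

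Of 2 other genes that handle 2-methylcitrate, the second product of Cit3, 1 fell and 1 was not called. ICL2, the lyase, fell with a log2 fold change of -1.09, at 157 FPKM in IMY104 and 334 FPKM in CEN.PK113-7D, in the authors' deposited table. PDH1, the dehydratase next to CIT3 on chromosome 16, was not called, with -0.16, at 558 FPKM in IMY104 and 622 FPKM in CEN.PK113-7D, in the authors' deposited table. CIT3 and PDH1 thus had nearly the same log2 fold change, and neither passed the test.

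Of 3 other lactate dehydrogenase genes, 1 rose and 2 fell. DLD2, the mitochondrial paralog of DLD3, rose with a log2 fold change of 0.32, at 273 FPKM in IMY104 and 220 FPKM in CEN.PK113-7D, in the authors' deposited table. The respiratory D-lactate dehydrogenase DLD1 fell with -0.38, and the L-lactate dehydrogenase CYB2 fell with -0.50, in the authors' deposited table. DLD3 and DLD2 were identical in 61.3% of aligned coding positions of R64, with a longest shared run of 20 bases. The serine synthesis genes SER3 and SER33, whose enzymes also make D-2-hydroxyglutarate, were listed at -0.14 and -0.02 in the authors' deposited table. SER1 and SER2 complete the list of 4 genes, of which none was called and none had an unadjusted p-value under 0.05, and the lowest was 0.0581 for SER1 in the authors' deposited table.

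Genes that handle citrate and 2-oxoglutarate split, with 3 of 10 higher, 2 lower and 5 not called. ODC2, a mitochondrial 2-oxodicarboxylate carrier, rose with a log2 fold change of 0.49, the citrate and oxoglutarate carrier YHM2 with 0.36 and the mitochondrial isocitrate dehydrogenase IDP1 with 0.26 and a q-value of 0.0317 in the authors' deposited table. The cytosolic IDP2 fell with -0.68 and the peroxisomal IDP3 with -0.79 in the authors' deposited table. ODC1, MDH1, KGD1, KGD2 and CTP1 were not called, with values between -0.15 and 0.16, in the authors' deposited table. The list's median was 0.10.

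Of 5 enzymes that make or use glutamate, for which the pathway supplies 2-oxoglutarate, 1 rose and 2 fell. The glutamate dehydrogenase GDH1 rose with a log2 fold change of 0.31 and a q-value of 0.0155, its paralog GDH3 fell with -0.79 and the glutamine synthetase GLN1 fell with -0.41 in the authors' deposited table. GLT1 and GDH2 had -0.13 and -0.23 and were not called in the authors' deposited table. Of the 5 listed Hap genes, HAP4 fell with -0.29, at 240 FPKM in IMY104 and 293 FPKM in CEN.PK113-7D, with a q-value of 0.0192, in the authors' deposited table. HAP1, HAP2, HAP3 and HAP5 lay between -0.08 and 0.16 and were not called in the authors' deposited table. Over all lists, with each gene counted once, 8 of 45 genes rose and 9 fell, 37.8% in all, beside 22.6% of all tested models. The lists were chosen with earlier results of these data known, so these shares are no test of the lists.

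**Figure D4:**
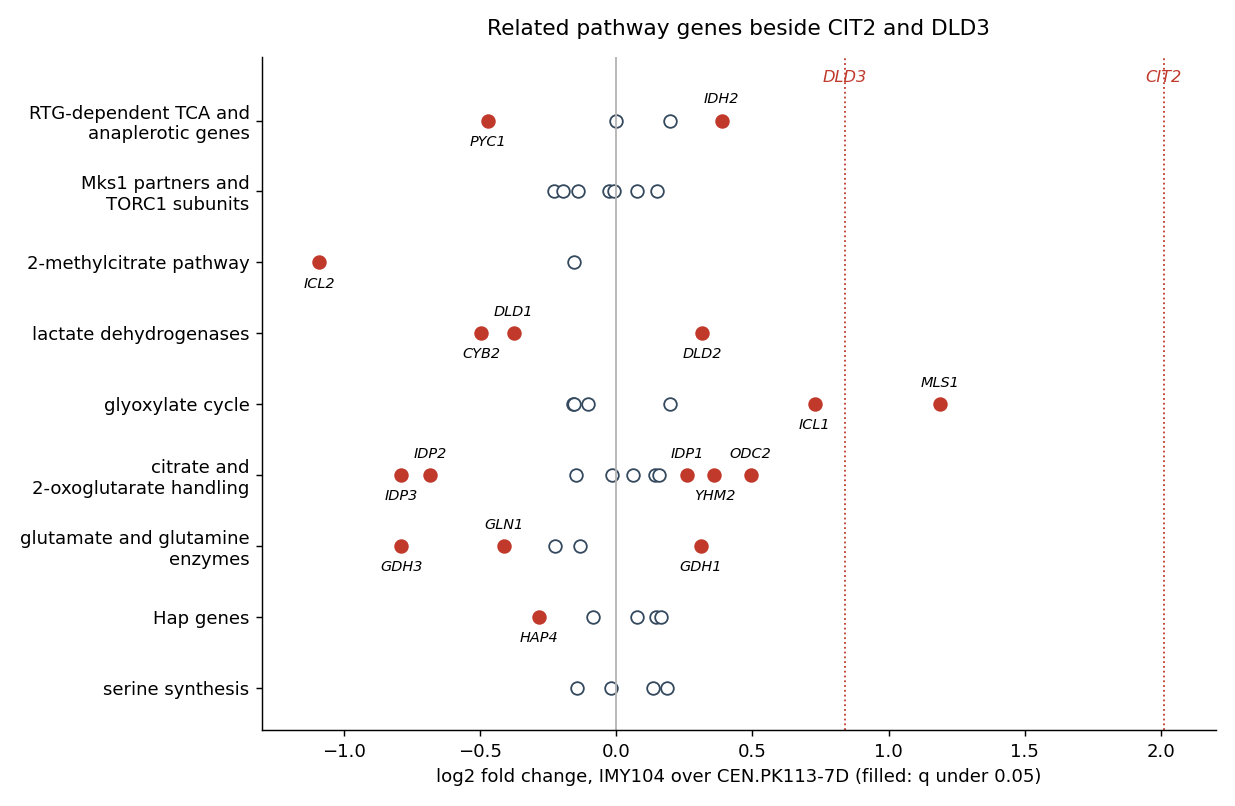
Each circle is a gene of a list, placed by its log2 fold change (IMY104 over CEN.PK113-7D), filled where its q-value was under 0.05, and dotted lines mark CIT2 at 2.01 and DLD3 at 0.84. MLS1 at 1.19 is the only listed gene to the right of DLD3, and no listed gene reaches CIT2.

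The neighbours of each member along the chromosome were read as well, 2 gene models on each side in the authors' assembly. Of 36 such models 3 were called higher and 6 lower, 25.0% in all, beside 22.6% of all tested models, with a median log2 fold change of 0.0005. CIT2 lies at chromosome 3, 120613 to 121995, on the minus strand of that assembly. YCP4, whose model lies 627 bp beyond the 3′ end of CIT2 on the same strand, fell with -0.51, at 753 FPKM in IMY104 and 1074 FPKM in CEN.PK113-7D, in the authors' deposited table. The models on the 5′ side of CIT2, RBP95 and CWH43, and MRPL32 on the 3′ side were not called. Of these, RBP95, at 0.23, had an unadjusted p-value under 0.05 (0.01705) in the authors' test. RBP95 stands next to CIT2 in the authors' assembly, whereas 9 protein-coding genes separate them in R64, so the assemblies differ in which genes neighbour CIT2 on this side.

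DLD3 lies at chromosome 5, 14435 to 15925, on the plus strand. The next gene on its 3′ side, DSF1, of the mannitol dehydrogenase family, was split into 2 models that both rose. The nearer one, 606 bp long, had a log2 fold change of 0.89, with 47.2 FPKM in IMY104 and 25.5 FPKM in CEN.PK113-7D, in the authors' deposited table. The other DSF1 model, 882 bp long, had 0.86, with 54.2 FPKM in IMY104 and 29.9 FPKM in CEN.PK113-7D, in the authors' deposited table. These values are close to the 0.84 of DLD3, and the gap between DLD3 and DSF1 is 1743 bp. DSF1 has a near-identical copy elsewhere in the genome, which was not analysed here, so its value is less certain. RMD6 and YEL073C on the 5′ side of DLD3 were not called, with 0.13 and 0.06, in the authors' deposited table.

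CIT1 lies at chromosome 14, 623612 to 625051, on the minus strand, and CIT3 at chromosome 16, 556338 to 557798, on the plus strand. Near CIT1, only RPC34 was called, at 0.25 on the log2 scale, in the authors' deposited table. FUN34, at -0.20, was not called but had an unadjusted p-value under 0.05 (0.04025) in the authors' test. Near CIT3 no model was called by the authors' test, and SNF8, at -0.20, was the 1 neighbour with an unadjusted p-value under 0.05 (0.0334) in the authors' deposited table. Around the regulators, INP54 near RTG1, RMR1 near RTG2, ECM21 near RTG3 and both SIS1 and ASI3 near LST8 fell, with values between -0.32 and -0.26, in the authors' deposited table. No neighbour of MKS1 was called, and MLF3, at 0.20, was the 1 with an unadjusted p-value under 0.05 (0.0301) in the authors' deposited table.

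**Figure D5:**
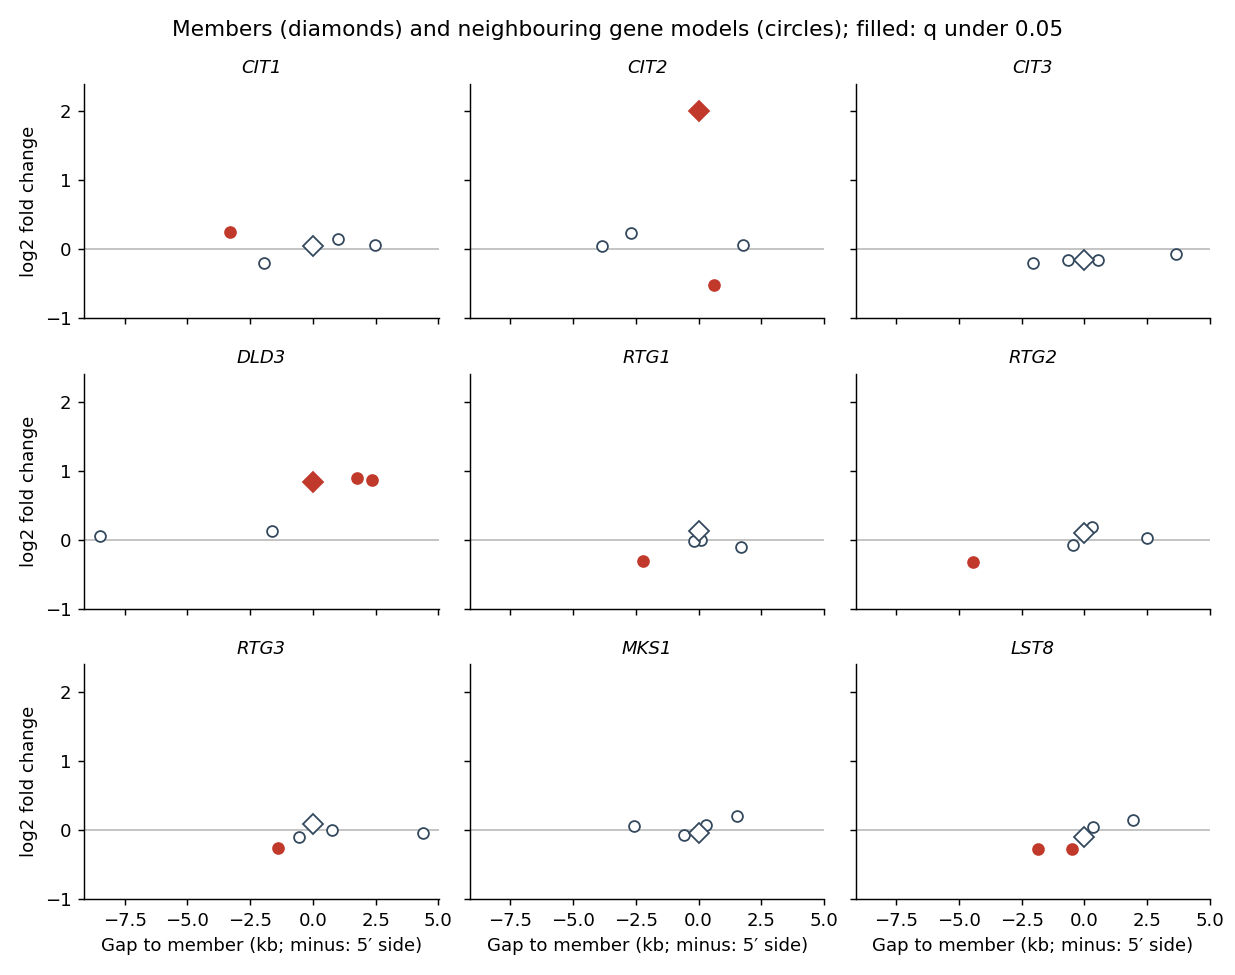
Each panel gives the log2 fold change (IMY104 over CEN.PK113-7D) of 1 member (diamond) and its neighbouring gene models (circles) against the gap to the member in kb, with the 5′ side to the left, filled where the q-value was under 0.05. CIT2 stands alone at 2.01 among its neighbours, and DLD3 at 0.84 lies beside the 2 models of DSF1 at 0.89 and 0.86.

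The genes with the fold change most like each called member were named by a fixed rule, as the 3 called models with at least 10 FPKM in both strains that lay nearest in log2 fold change among 1173 such models, a likeness that rests on 2 strains only. For CIT2 they were BSC1 with 1.96, PRM7 with 1.94 and the hexose transporter gene HXT4 with 1.81 in the authors' deposited table. All 3 had lower levels than CIT2 in IMY104, with 39.8 FPKM for BSC1, 47.5 FPKM for PRM7 and 340 FPKM for HXT4 in the authors' deposited table. For DLD3 they were DIA1 with 0.84, the cytochrome c heme lyase gene CYC3 with 0.84 and an unnamed model of 198 bp on chromosome 5 with 0.83 in the authors' deposited table.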

How the data were processed

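The members and lists were chosen with earlier results of these data known. The submitters' processing notes name Cuffdiff, Cufflinks, SAMtools (0.1.7-r510), BWA (0.5.9-r16) and CASAVA (1.8.2), without roles. Per the file headers, the authors deposited 1 FPKM value per strain, a log2 fold change (IMY104 over CEN.PK113-7D), their call with its p-value and q-value, and 2 scores, a signed fold change and a test statistic. Which genome build and which scaling across libraries they used is not given in the sources used here. Coordinates of gene models are those of the authors' own assembly, and the sequences and their coordinates come from R64 alone. Nothing was converted between the assemblies.

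The planned limma fit needed values per library, so the authors' test was used, as planned for that case. Of 5479 models 16 were not tested, and 5447 blank lines were dropped. The smallest p-value, 5e-05, was shared by 581 models, so these cannot be ranked by p. Log2 fold changes and q-values were recomputed from the FPKM values and p-values and differed by less than rounding. The Benjamini-Hochberg and quantile steps were tested on simulated data. R64 symbols matched 5357 of 5361 systematic names. One listed gene is not reported here and was left out of the counts. For lists, the longest model of a gene on its R64 chromosome was used. Coding sequences were aligned globally in Biopython 1.88 (match 1, mismatch -1, gap opening -3, extension -0.5), with Python 3.11.15. No strand-marking step is named, so antisense reads cannot be told apart. Named genes were all members, the called and summarised list genes, called neighbours and the 3 models nearest each called member. The alternatives tried were other q, fold and FPKM limits, pseudocounts, scalings, model choices and promoter lengths.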

Additional observations from a re-analysis of the deposited data

How the results depend on the processing

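All 36 log2 fold changes of the 9 genes under 2 pseudocounts, median centring and quantile normalization kept their direction. CIT2 ran between 2.00 and 2.05 and DLD3 between 0.83 and 0.91. With a 2-fold change required, 1 member (CIT2) and 103 models were called, with 1 FPKM added first 1 and 98, and with 5 FPKM added 1 and 84, since the rule removes smaller changes. The share of CIT2 over CIT1 and CIT2 only was 54.1% in IMY104 and 23.1% in CEN.PK113-7D, and after quantile normalization 47.6% in IMY104 and 18.6% in CEN.PK113-7D. With a q-value under 0.01, 877 of all tested models were called, against 1235 with a q-value under 0.05. At the stricter limit 0 Hap genes were called in the authors' Cuffdiff-style test (HAP4, the 1 with an unadjusted p-value under 0.05, was lost). Still called were 4 citrate and 2-oxoglutarate genes (without IDP1), 2 glutamate genes (without GDH1) and 4 neighbour models. That neighbour limit and the promoter length were chosen after seeing the data. With 500 bases before the start codon, 6 of the 9 members held CCAAT, beside 67.0% of all such windows. No paired analysis was possible because the table combines the libraries of each strain, and leaving out a replicate was not run for the same reason. Depth is unknown, so changes smaller than the authors' test could call remain undetected.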
